A study of Mus musculus with 6 samples.

Results

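Of 31131 H3K27ac peaks in mouse embryonic stem cells (ESCs), 1302 were solitary distal peaks near an OCT4 site. They were chosen by position alone: each carried the authors' mark for an OCT4 ChIP-seq peak within 1 kb, had no annotated transcript start (GENCODE vM21, GRCm38) within 1 kb, and had no other peak with the OCT4 mark within 50 kb on its chromosome, measured edge to edge. They made up part of the 3780 distal peaks with the mark, and the other 2478 had another marked peak within 50 kb and are called clustered. From a clustered peak the next marked peak was a median of 0.643 kb away, less than the 1 kb reach of the mark. Such neighbours may share the same OCT4 site, which was not tested. The name clustered thus does not mean a group of separate enhancers. H3K27ac ChIP-seq was carried out in O4AID ESCs of strain 129SV. The cells were Oct4-/- and carried 3 transgenes, a TetOFF Oct4 and the constructs CAG Oct4AID and CAG Tir1. Both OCT4 fused to an auxin-inducible degron and TIR1, the plant protein that directs a degron-tagged protein to the proteasome in the presence of auxin, were driven by the CAG promoter. The wild-type Oct4 transgene was held off by doxycycline in every sample, and all cells were grown in N2B27 with PD03, Chiron and LIF. The 3 uninduced libraries came from untreated cells and the 3 IAA libraries from cells given 500 μM indole-3-acetic acid (IAA), an auxin, for 1.5 h. The degron line is an engineered ESC line, whereas the OCT4 mark came from published data in V6.5 ESCs, so the mark does not show that OCT4 was bound there in the cells studied. Peaks were called on the uninduced reads alone, and regions acetylated only after IAA were not listed.

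OCT4, encoded by Pou5f1, is a POU-domain transcription factor that binds the octamer, often beside SOX2 on a composite site in which the SOX element precedes the POU element. Acetylation of histone H3 at lysine 27 is deposited by EP300 and CBP and marks the nucleosomes on either side of factor-bound DNA at active enhancers and promoters. In ESCs many pluripotency genes lie beside dense groups of such enhancers, while other OCT4-marked elements lie apart from one another.

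The DNA of the solitary peaks was read from GRCm38.p6 and searched for the composite SOX-POU site (SOX element CATTGT, 1 free base, POU element ATGCAAA, both strands). No member held an exact copy in the 1000 bases around its centre, and 10 members held a copy with 1 mismatch inside the peak. They were singled out after the data were seen, and 9 of them are printed so that the shared letters can be compared. Capitals mark the composite match, and each sequence runs 5′ to 3′ on the strand given, so that the SOX letters come first.
Tmem38b member, chr4:53951882-53951915, - strand: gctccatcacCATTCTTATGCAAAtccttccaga
Stox2 member, chr8:47324082-47324115, - strand: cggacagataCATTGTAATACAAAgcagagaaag
Cep170 member, chr1:176724236-176724269, - strand: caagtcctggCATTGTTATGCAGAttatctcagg
Zfp652 member, chr11:95768349-95768382, + strand: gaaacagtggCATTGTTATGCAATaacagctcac
Slc4a5 member, chr6:83231480-83231513, - strand: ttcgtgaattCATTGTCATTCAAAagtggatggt
Abca1 member, chr4:53196953-53196986, + strand: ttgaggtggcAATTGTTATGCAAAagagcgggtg
Ntf3 member, chr6:126311212-126311245, - strand: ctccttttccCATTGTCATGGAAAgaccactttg
Senp7 member, chr16:56115715-56115748, + strand: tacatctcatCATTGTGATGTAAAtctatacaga
Cdc42ep3 member, chr17:79342835-79342868, + strand: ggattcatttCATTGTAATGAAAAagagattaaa
Of the 10 members with 1 mismatch, 7 were lower after IAA past the threshold and at the same 7 the IAA values all lay below the uninduced values. Over all features, 68.2% of tested peaks were lower and 61.4% of peaks did not overlap, so these counts are near the background. The Senp7 member, in an intron of Senp7, a SUMO protease gene, read 1.70, 1.93 and 1.56 RPKM (reads scaled by the length of the peak and the size of the library) in uninduced replicates 1 to 3 and 0.813, 0.837 and 0.925 RPKM after IAA, a log2 change of -0.93 ± 0.21 (SE; limma adjusted p = 0.0025). The Stox2 member read 2.66, 2.21 and 2.63 RPKM before and 2.35, 1.98 and 1.87 RPKM after, and its conditions overlapped (log2 change -0.26 ± 0.18 SE; limma adjusted p = 0.173). A near-complete composite site was thus present both in members that passed the test and in members that did not.

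Among the members named by rule, those in introns of Lifr, the gene of the LIF receptor, and of Efl1 held a composite match of 2 mismatches inside the peak, and the former is printed. The match (capitals) is shown on the minus strand in 160 bases that hold 2 octamers. The member 5.47 kb from the start of Sox21, a SOX-family transcription factor gene, is shown for contrast. It fell the most of the 6 strongest members and has no match with fewer than 5 mismatches inside the peak. The bases outside the peak had no part in this choice.
Lifr member, chr15:7115790-7115949, - strand: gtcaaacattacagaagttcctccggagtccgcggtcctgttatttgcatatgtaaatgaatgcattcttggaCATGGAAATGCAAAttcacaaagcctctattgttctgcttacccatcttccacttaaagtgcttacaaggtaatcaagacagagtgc
Sox21 member, chr14:118231317-118231476, + strand: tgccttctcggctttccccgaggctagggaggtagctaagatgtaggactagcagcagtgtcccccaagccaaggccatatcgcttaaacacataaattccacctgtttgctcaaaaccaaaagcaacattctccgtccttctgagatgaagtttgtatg

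The composite site was found most often just outside the peaks. Over the 1110 members that passed the level threshold, matches with at most 2 mismatches numbered 7.24 per 100 kb inside the peaks and 14.4 per 100 kb in the 250 bp beyond each edge. The density then fell to 8.11 per 100 kb at 250 to 500 bp, 6.22 at 500 to 1000 bp and 3.74 at 1000 to 2000 bp. The clustered peaks were also densest in the first 250 bp, with 4.28 per 100 kb inside and 17.7 in that range, although neighbouring clustered peaks can share a flank. Distal peaks with no OCT4 mark and no marked peak within 50 kb, called far peaks, had 2.36 per 100 kb inside and 3.92 in the first 250 bp. The exact octamer ATGCAAAT followed the same course around the members, with 11.1 per 100 kb inside, 17.3 in the first 250 bp and 7.12 at 1000 to 2000 bp. These densities are descriptions of the reference sequence, and their differences were not tested. The rule chose members for an OCT4 site within 1 kb and far peaks for having none. A difference in OCT4 motifs between them, here or in the counts below, is thus no independent finding.

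**Figure D1:**
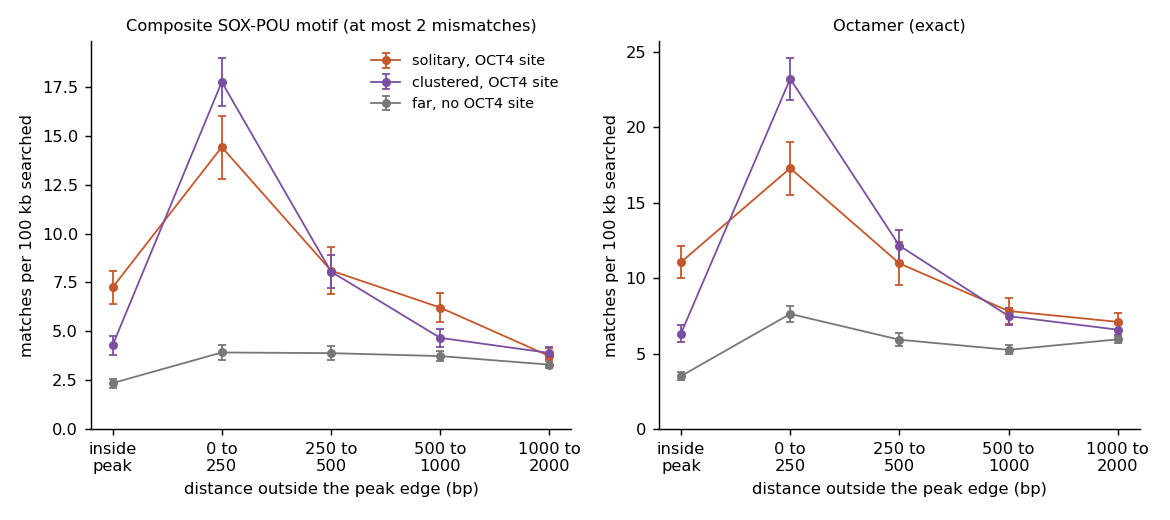
Matches to the composite SOX-POU motif (left) and to the exact octamer (right) per 100 kb searched, inside the tested peaks and in 4 ranges of distance outside the peak edge; bars are the square root of the number of matches, which covers counting error only. Around solitary members the composite site stands at 14.4 per 100 kb in the first 250 bp outside the edge, against 3.92 around far peaks without an OCT4 site.

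In the 1000-base window at the centre of the peak, 117 members (8.99%) held a composite match of at most 2 mismatches, against 7.06% of clustered peaks and 2.24% of far peaks. An exact octamer was found in 218 members (16.7%), 10.3% of clustered peaks and 3.74% of far peaks. The SOX motif ACAATG was found in 43.3% of members, 41.6% of clustered peaks and 31.1% of far peaks. Of the motifs of other factors of the naive network, TCAAGGTCA, bound by ESRRB, was found in 4.07% of members. It was found in 5.41% of clustered peaks and 3.22% of far peaks. GGGTGTGG, bound by KLF factors, was found in 9.52% of members, 11.1% of clustered peaks and 9.03% of far peaks. TTCNNNGAA, bound by STAT factors, was found in 33.3% of members, 30.9% of clustered peaks and 25.1% of far peaks. The STAT motif was found in 30.7% of the members tested and in 48.4% of those below the level threshold. CACGTG, bound by MYC, was found in 13.4% of members and 15.8% of far peaks. The ATGCAAA of the composite site lies within the octamer, so the counts of the composite site and the octamer overlap.

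The members below the level threshold had sequence of another kind. Of 1302 members, 192 (14.7%) had a mean RPKM under 0.5 in both conditions, and 69 of these stood at 1 read, the lowest value the files hold, in all 6 libraries. A median of 98.1% of their bases were soft-masked as repeats in the genome file, against 19.6% in the members tested. An octamer lay in the window of 73 of the 192 (38.0%), against 13.1% of the members tested, and 71 of the 192 (37.0%) held it within 1 of 4 recurrent sequences. These sequences were found after the values were seen, as 32-base stretches centred on the octamer (capitals) that differ by at most 3 bases. They were searched for in the members below the threshold alone, so their higher share there is in part set by the search. Tested members were not searched for recurrent sequences of their own. The 4 are shown because they account for nearly all octamers of the low members.
Repeat sequence 1, chr1:45268700-45268731, + strand: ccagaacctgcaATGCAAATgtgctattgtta
Repeat sequence 2, chr1:44822420-44822451, + strand: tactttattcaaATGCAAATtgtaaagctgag
Repeat sequence 3, chr14:3207314-3207345, + strand: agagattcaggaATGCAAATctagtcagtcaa
Repeat sequence 4, chr14:3948254-3948285, + strand: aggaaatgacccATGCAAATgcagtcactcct
Repeat sequence 1 was found in 86 members on 20 chromosomes, 43 below the threshold (22.4% of those) and 43 above it (3.87% of those). Of clustered peaks 44 (1.78%) held it, against 0.369% of far peaks and 0.578% of all peaks. It occurs 177 times without a mismatch on the assembled chromosomes. Repeat sequence 2 was found in 20 members, all below the threshold, with a highest authors' mean of 0.232 RPKM in uninduced cells. Among the members, repeat sequences 3 and 4 lay on chromosome 14 alone, in 8 and 7 members, and all 7 held both. Clustered peaks also held repeat sequences 2, 3 and 4, in 6, 5 and 4 peaks. Reads were aligned with the default settings of Bowtie2, which report 1 alignment per read and choose at random among equally good ones, so reads of repeated copies cannot be assigned to a copy with certainty.
The 43 members above the threshold with repeat sequence 1 had a median of 0.933 RPKM (authors' mean) in uninduced cells and 0.488 RPKM after IAA. Of these, 27 (62.8%) were lower past the threshold, with a median log2 change of -0.73, and 29 had no overlap between the conditions, where 68.2% of all tested peaks were lower and 61.4% of all peaks had no overlap. Leaving out all 4 recurrent sequences, 102 of the 1110 tested members (9.19%) still held an octamer, against 4.34% of the far peaks tested.

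Most solitary peaks lost H3K27ac within 1.5 h of IAA. Over all 1302 members, the median H3K27ac was 1.89, 1.80 and 1.81 RPKM in uninduced replicates 1, 2 and 3 and 1.18, 1.17 and 0.981 RPKM in IAA replicates 1, 2 and 3. Every IAA library lay below every uninduced library, and IAA replicate 3 was the lowest. On the log2(RPKM + 0.1) scale used for all tests, the library median was 0.95 ± 0.038 (SD, n = 3) in uninduced cells and lay at 0.27 ± 0.138 (SD, n = 3) with IAA, which gives a change of -0.68 (p = 0.1 by exact permutation, two-sided, the least that 20 labellings allow). Nothing in the labels ties the libraries to separate cultures, so these tests measure the spread between 3 immunoprecipitations of each condition. The whole assay moved in the same direction: the median of all tested peaks changed by -0.55, and relative to that shift the members changed by -0.12. Libraries held 31634480 to 39547452 reads, of which 6.63% to 7.12% fell in peaks in uninduced cells and 4.05% to 5.15% after IAA. RPKM divides by all reads, so this share is the level of all peaks weighted by their length. Its fall restates that of the peaks and is no separate measure. The cause of a shift common to all peaks, and its part in the members' change, was not tested. The median member held 36 to 48 reads in the uninduced libraries and 22 to 28 after IAA, a counting error of 14.4% to 21.3%. All 10 ESC identity genes checked had a tested promoter peak, against 3 of 14 genes of other cell types (Gata6, Pax6 and Sox1) and 0 of 5 trophectoderm genes.

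Peak by peak, limma called 859 of the 1110 tested members (77.4%) lower and 0 higher with an adjusted p (Benjamini-Hochberg) under 0.05, where 68.2% of all 26457 tested peaks were lower and 0.0605% higher. The 859 are 66.0% of all 1302 members. Of the members tested, 38 passed the level threshold through the uninduced mean alone, 18 of them called lower, and 0 through the IAA mean alone. Over all members without a threshold, 1185 (91.0%) had a negative change, against 88.6% of all peaks. At 917 members (70.4%) the 3 IAA values lay below the 3 uninduced values, against 61.4% of all peaks, and at 1 member they lay above, against 0.286%. With each library centred on its median tested peak, 28 members (2.52%) were lower and 2 were higher, where 1.97% of all tested peaks were lower and 0.544% higher. Most calls were thus made on the deposited scale and not after centring. Without uninduced replicate 1, 553 members (49.8%) were lower. The share of all peaks in that fit is not given here, so 49.8% cannot be set against the 68.2% from all libraries.

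**Figure D2:**
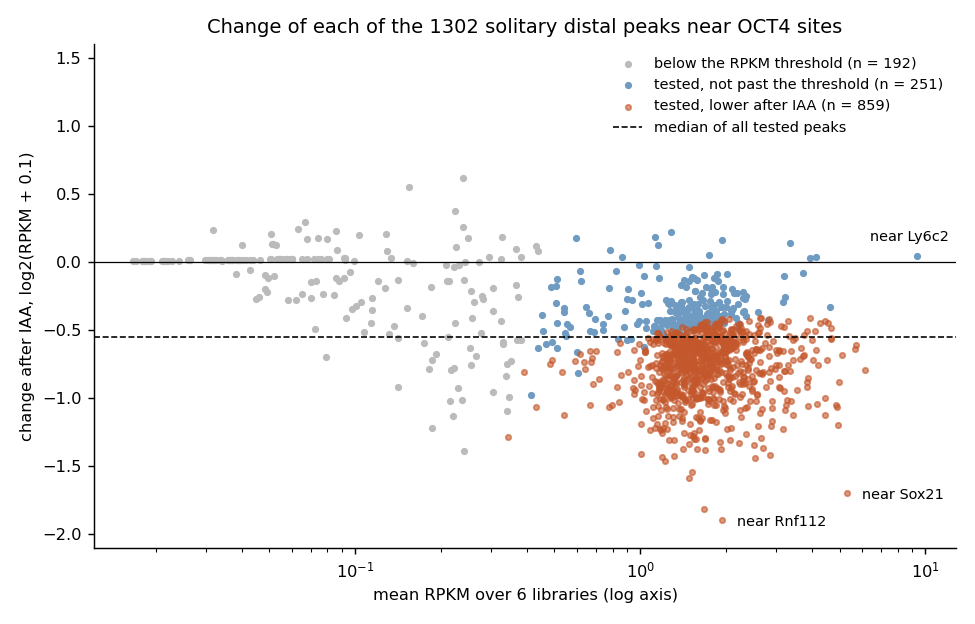
Each point is 1 of the 1302 solitary peaks: mean RPKM over 6 libraries (log axis) against the change after IAA on the log2(RPKM + 0.1) scale. Most tested members lie below the dashed line at -0.55, the median of all tested peaks, the members near Sox21 and Rnf112 are among the lowest, the strongest member, near Ly6c2, lies near 0, and members below the threshold pile up at 0 where all libraries hold 1 read.

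The solitary peaks fell more than far peaks without an OCT4 site and less than clustered OCT4-site peaks. Within each library the members' median stood above that of the 9203 far peaks, by 0.28 ± 0.026 (log2, SD, n = 3) in uninduced cells but by 0.15 ± 0.032 (SD, n = 3) with IAA, so the difference changed by -0.13 and the conditions did not overlap (p = 0.1 by two-sided exact permutation). The members' median stood below that of the clustered peaks by 0.55 ± 0.017 (SD, n = 3) before IAA but by 0.45 ± 0.017 (SD, n = 3) with it, so this difference changed by 0.10, again without overlap (p = 0.1 by two-sided exact permutation). The set medians themselves changed by -0.68 for solitary, -0.78 for clustered and -0.55 for far peaks. Clustered peaks were called lower in 89.1% of 2334 tested and far peaks in 53.7% of 5965, so the members lay between them on either side of the 68.2% of all peaks. After centring, 10.4% of clustered, 2.52% of solitary and 0.687% of far peaks were lower.

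Clustered peaks were also stronger, with a median authors' mean of 2.70 RPKM in uninduced cells against 1.83 for the members and 1.57 for far peaks. When peaks were compared only within 10 classes of like mean RPKM, a comparison chosen after the data were seen, the members' difference from far peaks changed by -0.18 and from clustered peaks by 0.11, with no overlap in either (exact two-sided permutation test, p = 0.1 for each). In 10 of 10 classes the members' median change was below that of far peaks and above that of clustered peaks. The classes were cut on the mean of all 6 libraries, IAA included, so the peaks in a class need not have had the same level in uninduced cells. Each of 709 members was also set against its nearest unmarked distal peak within 50 kb, at a median distance of 11.6 kb. The member fell more in 486 pairs (68.5%), and the median difference within pairs changed by -0.07 with no overlap between conditions (exact two-sided permutation test, p = 0.1).

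**Figure D3:**
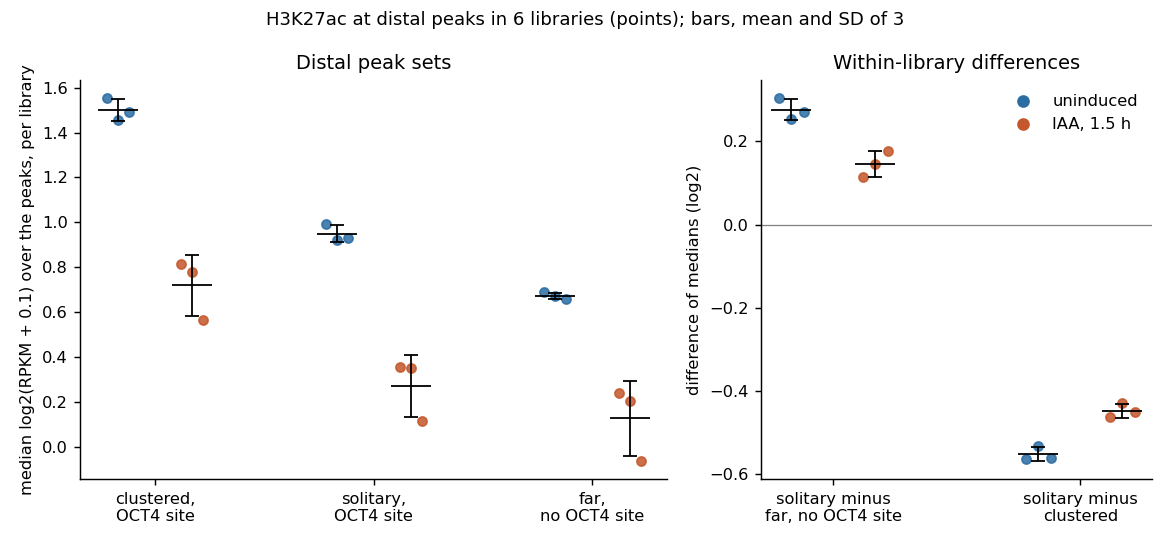
Left, median log2(RPKM + 0.1) over the clustered, solitary and far distal peaks in each of 6 libraries; right, difference of the members' median from each other set within a library; points are libraries, bars the mean and SD of 3. Solitary peaks approach far peaks (0.28 to 0.15) and clustered peaks (-0.55 to -0.45) after IAA.

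The members' length had a median of 715 bp, and their GC content a median of 47.7%, against 52.8% for far peaks. By position, 682 (52.4%) were intergenic, 528 (40.6%) lay in introns and 92 (7.07%) overlapped an exon. The nearest protein-coding start was a median of 30.7 kb away and the next OCT4-marked peak a median of 235 kb, and 359 members (27.6%) had no other H3K27ac peak of any kind within 50 kb. The X chromosome held 37 members, of which 16 passed the level threshold. Over 4 equal classes of tested members by level, from low to high, the median change was -0.70, -0.65, -0.65 and -0.67.

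Members were split by 9 features that the choice of members did not use, or used only at another distance, and the difference between the subsets was followed from uninduced to IAA libraries. The lowest adjusted p (Benjamini-Hochberg over 9 splits, exact permutation) was 0.18, and the design allows no p under 0.1. Members in genes and intergenic members stood 0.21 ± 0.016 (log2, SD, n = 3) apart before IAA but 0.20 ± 0.031 (SD, n = 3) with it, which gives a change of -0.00 (exact permutation test, p = 1). Members with a composite match in the window changed by -0.04 against those without, with overlapping libraries (exact permutation test, p = 0.3). Among tested members this split changed by -0.06 (exact permutation test, p = 0.1), and with a mean of at least 0.5 RPKM over the 6 libraries by -0.07 (exact permutation test, p = 0.2). The median change per peak was -0.76 for the 14 members with 1 mismatch, -0.69 for the 103 with 2, -0.62 for those with 3, -0.63 with 4 and -0.55 with 5 or more, which is given as a description. Members with an unmarked H3K27ac peak within 10 kb changed by -0.05 against those without (no overlap, exact permutation test, p = 0.1). Among tested members this split changed by -0.04 (exact permutation test, p = 0.3). The difference between members with a coding start within 50 kb and those farther away changed by 0.06 (no overlap, exact permutation test, p = 0.1), and by 0.01 among tested members. Members above the median level changed by 0.11 against the rest (no overlap, exact permutation test, p = 0.1) and by 0.06 among tested members. Level was the mean of all 6 libraries, IAA included, so this split is not independent of the change and cannot show that it depends on level. The difference of the 1000 members over 100 kb from the next marked peak from the nearer ones changed by -0.03 (no overlap, exact permutation test, p = 0.1) and by -0.01 among tested members. The splits by length (0.02) and by GC content (0.08) had overlapping libraries (exact permutation test, p = 0.3 and 0.4). The 352 members over 50% soft-masked changed by 0.16 against the rest (no overlap, exact permutation test, p = 0.1). Among tested members this split changed by -0.02. That leaves out the low members of both subsets, 163 of them over 50% soft-masked.

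Acetylation beside the members was examined in unmarked distal peaks for which a member was the nearest OCT4-marked peak, with far peaks as the reference. The 224 neighbours up to 5 kb away stood 0.57 ± 0.057 (log2, SD, n = 3) above far peaks in uninduced cells but 0.40 ± 0.049 (SD, n = 3) with IAA, and this difference changed by -0.17 with no overlap (p = 0.1 by two-sided exact permutation, adjusted p = 0.15 over 3 distances). At 5 to 20 kb, 508 neighbours changed by 0.00 relative to far peaks (exact permutation test, p = 0.7). At 20 to 50 kb, 659 neighbours changed by 0.04 (no overlap, exact permutation test, p = 0.1), but by -0.00 when low peaks were left out. Without low peaks the change at 5 to 20 kb was -0.06 (exact permutation test, p = 0.1). Neighbours up to 5 kb were thus the distance class that fell against far peaks with low peaks and without them.

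**Figure D4:**
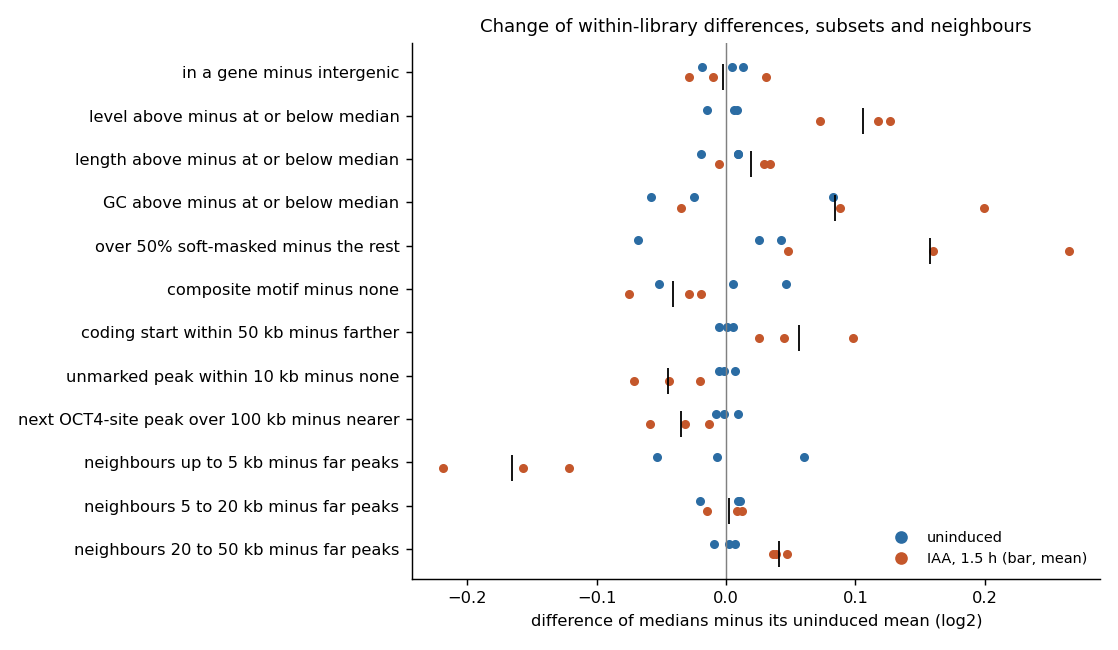
For 9 splits of the members and 3 distance classes of neighbours, the difference of medians in each library minus its uninduced mean (log2); points are libraries, the black bar is the IAA mean. Neighbours up to 5 kb lie at -0.17, neighbours at 5 to 20 kb at 0.00, and the split by gene body at -0.00.

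Nearest genes are given here to place the peaks, and no link between a peak and a gene was tested. Of the members, 989 had a protein-coding start within 100 kb, and at 621 the nearest coding gene had an H3K27ac peak at its promoter. The median change was -0.66 at these 621 members and -0.53 at the 599 promoter peaks. It was -0.59 at the 681 members without such a promoter peak.

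The strongest member by mean level over the 6 libraries was not among those called lower. It lies in intergenic DNA at chr15:75085524-75087176, 24.5 kb from the start of Ly6c2, which encodes a GPI-anchored cell surface protein. It read 8.72, 9.85 and 8.82 RPKM in uninduced cells and 8.71, 8.30 and 11.5 RPKM after IAA, with overlapping conditions (log2 change 0.05 ± 0.15 SE; limma adjusted p = 0.774). It is AT-rich, at 39.7% GC, and 55.4% soft-masked.
The other 5 of the 6 strongest members were lower past the threshold. The intergenic member at chr14:118231235-118231557, whose sequence is printed above, read 8.17, 7.56 and 8.82 RPKM before and 2.82, 2.41 and 2.15 RPKM after IAA, 5.47 kb from Sox21. Its conditions were far apart, with a 3.33-fold lower mean and a log2 change of -1.70 ± 0.16 (SE; limma adjusted p = 8.97e-06), and it stayed past the threshold after centring (limma adjusted p = 0.000773). The member 6.42 kb from Rnf7, a subunit of cullin-RING ubiquitin ligases, went from 7.80 ± 0.358 to 4.48 ± 0.472 RPKM (SD, n = 3 each; log2 change -0.79). The member in an intron of Gpx4, which reduces lipid peroxides, went from 6.90 ± 0.253 to 4.51 ± 0.596 RPKM (log2 change -0.61), close to the shift of all peaks. The intronic member of Trim28, a corepressor of retroelements, went from 6.33 ± 0.505 to 3.90 ± 0.361 RPKM (log2 change -0.69), and the intergenic member 50.9 kb from Ssbp3 from 6.83 ± 0.506 to 4.46 ± 1.14 RPKM (log2 change -0.64). Without the shift of all peaks these 4 did not pass the threshold (limma adjusted p of 0.374 to 0.856 after centring).

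Apart from the Sox21 member, which was also among them, the 6 largest falls past the threshold were found at members with a mean of 1.22 to 1.94 RPKM over the libraries. The intergenic member at chr11:61446540-61447114, 6.89 kb from Rnf112, read 3.96, 2.48 and 2.88 RPKM before and 0.511, 1.06 and 0.754 RPKM after IAA. The log2 change of this member was -1.90 ± 0.25 (SE; limma adjusted p = 3.72e-05). A call past the threshold and conditions without overlap were required for naming a member here, so neither is a separate finding. The member in an intron of Epb41l4a went from 2.65 ± 0.439 to 0.692 ± 0.203 RPKM (SD, n = 3 each; log2 change -1.82). A member in an intron of the noncoding gene A730004F24Rik, with Tgfb2, a TGF-beta ligand gene, as the nearest coding gene at 192 kb, went from 2.29 ± 0.415 to 0.690 ± 0.0768 RPKM (log2 change -1.58). A member 652 kb from the nearest coding start, 4930452B06Rik, went from 2.32 ± 0.398 to 0.727 ± 0.084 RPKM (log2 change -1.54), so falls of this size were also found far from any coding gene. The member 9.41 kb from Robo4, a receptor gene of endothelial cells, went from 1.83 ± 0.31 to 0.612 ± 0.169 RPKM (log2 change -1.46). All but the Robo4 member stayed past the threshold after centring (limma adjusted p = 0.0504 at Robo4).

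At the other end, no tested member was higher past the threshold. The 3 highest changes were 0.22 near C130026I21Rik, 0.18 near Dpy19l1 and 0.18 near Tnc, and all had overlapping conditions. The member in an intron of Gm2619, 34.0 kb from C130026I21Rik, read 1.01, 1.42 and 1.10 RPKM before and 1.12, 1.68 and 1.37 RPKM after IAA (limma adjusted p = 0.365). After centring 2 members were higher, chosen here after their values were seen, in introns of Fbxw4 and Chl1. The Fbxw4 member read 3.17 RPKM on average before and 3.51 RPKM after IAA, and the Chl1 member 1.83 and 2.05 RPKM. Relative to the fall of other peaks these 2 stood out (limma adjusted p = 0.0334 and 0.0322 after centring), while on the deposited scale they did not change past the threshold (limma adjusted p = 0.424 and 0.429).

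Few solitary peaks lay near the genes of the lists used here, and the counts called lower stand beside 68.2% of all tested peaks and 77.4% of tested members. Of 33 naive pluripotency genes, 3 had a member as defined within 100 kb, and all 3 members were lower, where 68.2% of all tested peaks were, and 2 of them are described. The member 2.13 kb from Utf1, a chromatin-associated factor of undifferentiated cells, read 2.34, 2.26 and 1.62 RPKM before and 1.05, 0.827 and 0.947 RPKM after, with no overlap (log2 change -1.05 ± 0.22 SE; limma adjusted p = 0.0013). The member 52.9 kb from Gbx2, a homeobox gene downstream of LIF and STAT3, lies in an intron of Agap1 and went from 1.59 ± 0.209 to 0.928 ± 0.0157 RPKM (SD, n = 3 each; log2 change -0.71). Its call was lost without uninduced replicate 3 (limma adjusted p = 0.0508). The next OCT4-marked peak was 1013 kb away from the Utf1 member.

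All 7 members near 6 of 47 signalling genes were lower, against 68.2% of all tested peaks, and 5 of them are given by level. A member in an intron of Spred2, an inhibitor of RAS-ERK signalling, read 5.57, 6.92 and 6.97 RPKM before and 3.98, 3.67 and 2.81 RPKM after IAA (log2 change -0.88 ± 0.17 SE; limma adjusted p = 0.000631). The member in an intron of Fgfr1, an FGF receptor gene, read 3.85, 3.61 and 2.80 RPKM before and 2.27, 1.33 and 1.59 RPKM after (log2 change -0.97 ± 0.20 SE; limma adjusted p = 0.00128). The Lifr member printed above read 2.46, 2.18 and 2.75 RPKM before and 1.35, 1.46 and 0.977 RPKM after (log2 change -0.92 ± 0.20 SE; limma adjusted p = 0.00186). None of the 3 overlapped between conditions. A second member 74.4 kb from Spred2 went from 2.64 ± 0.0656 to 1.84 ± 0.248 RPKM (SD, n = 3 each; log2 change -0.50), a change that turned to 0.05 after centring and lost its call without uninduced replicate 1 or 2 (limma adjusted p = 0.0651 and 0.068). The member 5.17 kb from Fzd7, a Wnt receptor gene, went from 2.06 ± 0.402 to 1.32 ± 0.356 RPKM (log2 change -0.62), and lost its call without uninduced replicate 1 or 2 or IAA replicate 3 (limma adjusted p = 0.0938, 0.0876 and 0.102). The remaining members lay near Lefty2 and Tcf7l2.

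Of 3 members near chromatin genes, 2 were lower, a share like the 68.2% of all tested peaks. The member 56.1 kb from Arid1a, a BAF remodeller subunit gene, went from 4.77 ± 0.596 to 3.22 ± 0.826 RPKM (SD, n = 3 each; log2 change -0.57), and that in an intron of Rybp, a PRC1 subunit gene, from 1.81 ± 0.303 to 1.09 ± 0.423 RPKM (log2 change -0.73). Neither call held without uninduced replicate 1 (limma adjusted p = 0.0646 and 0.0818), nor Arid1a without IAA replicate 2 (limma adjusted p = 0.0644) or Rybp without IAA replicate 3 (limma adjusted p = 0.0917). The member 26.4 kb from Eed, a PRC2 subunit gene, had overlapping conditions at 1.61 ± 0.174 and 1.25 ± 0.492 RPKM (log2 change -0.41; limma adjusted p = 0.14), and passed without IAA replicate 2 (limma adjusted p = 0.0393).

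Near lineage genes, 2 of 4 tested members were lower, against 68.2% of all tested peaks. The member 44.0 kb from Sox1, a neural SOX gene, went from 2.51 ± 0.285 to 1.51 ± 0.437 RPKM (SD, n = 3 each; log2 change -0.73). The member in Nes, which encodes the neural progenitor filament nestin, overlaps an exon and went from 1.98 ± 0.263 to 1.49 ± 0.13 RPKM (log2 change -0.38; limma adjusted p = 0.0859). Of 2 members near Tfap2a, a transcription factor gene of trophectoderm and neural crest, that overlapping an exon went from 1.78 ± 0.30 to 1.23 ± 0.256 RPKM (log2 change -0.51; limma adjusted p = 0.0454), a call lost on leaving out any of 5 libraries (limma adjusted p of 0.0608 to 0.191) and a change of 0.04 after centring. The other, 78.6 kb away, went from 1.79 ± 0.285 to 1.41 ± 0.0435 RPKM (log2 change -0.31; limma adjusted p = 0.163). The single member near a formative gene, 76.6 kb from Sox11, was 100% soft-masked and had a median of 1 read over the libraries. None of the tested list members was lower after centring.

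**Figure D5:**
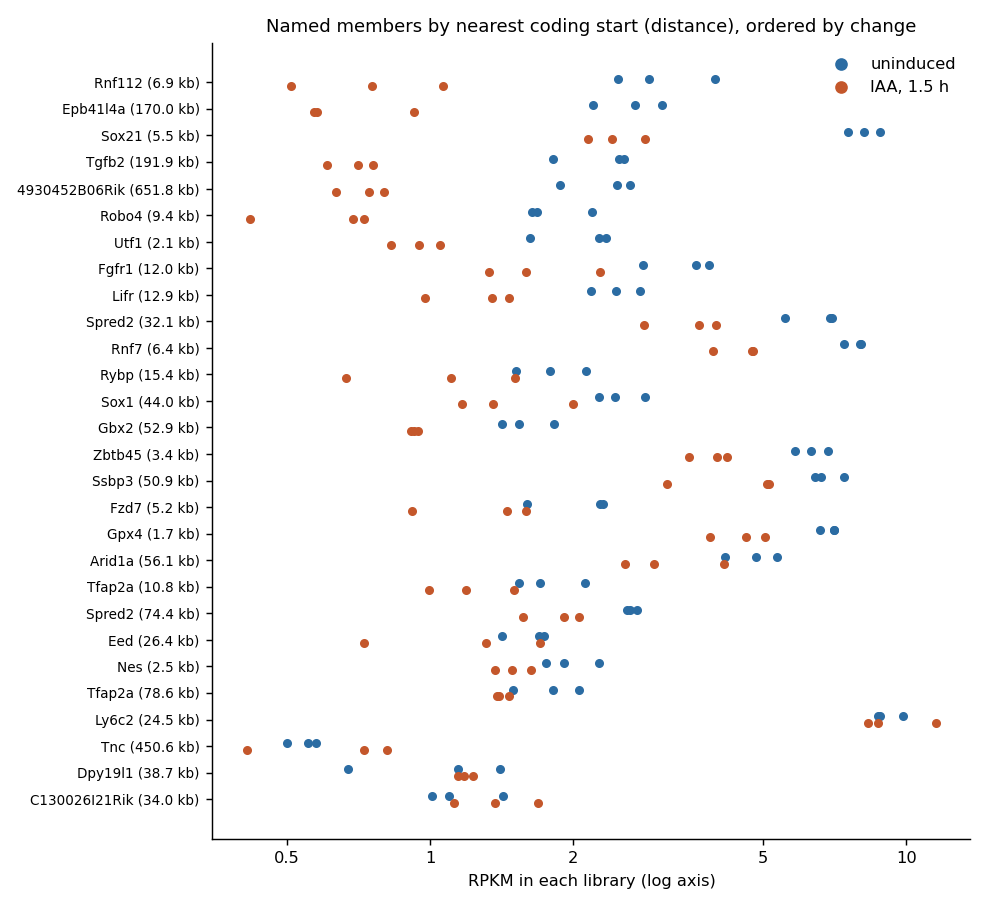
RPKM in each of 6 libraries (log axis) at the members described by name above the threshold, ordered by log2 change and labelled with the nearest coding gene and its distance. The conditions are widest apart at Rnf112, Epb41l4a and Sox21 and overlap at Ly6c2, Eed, Tnc, Dpy19l1 and C130026I21Rik.

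The peaks nearest to the 50 kb limit are given as a description, with no test. The 3 members just outside it, with gaps of up to 50.2 kb, had log2 changes of -0.64 (Ssbp3), -0.96 (Efl1) and -0.72 (Haus6). Just inside it, a pair of clustered peaks near Smad7 that are each other's neighbour had log2 changes of -0.38 and -0.996.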

How the data were processed

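H3K27ac ChIP-seq peaks of 6 libraries were analysed. The authors aligned reads to GRCm38 (mm10) with Bowtie2 (2.3.4.3 in the submitters' processing notes, default settings), removed duplicates, called peaks with MACS2 on pooled uninduced reads, and deposited RPKM values made with DiffBind, per library and as 2 pooled columns, used here as the authors' mean. No input library was used here, the number of per-sample columns not used was 0, and coordinates are printed as the files give them.

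Peaks of RPKM at least 0.5 in the mean of either condition entered limma (3.58.1, R 4.3.3, trend and robust) as log2(RPKM + 0.1), with no block and Benjamini-Hochberg adjustment over all peaks tested; the 0.1 understates changes of low peaks. limma was tested on simulated data. Set medians were computed per library without a threshold and compared by exact permutation (scipy 1.17.1), since peaks are not replicates. Library sizes were recovered from RPKM steps, taking the smallest value as 1 read, under which 100% of values lie within 0.01 of whole reads.

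Members, gene lists and tests were chosen with earlier results of these data known. Members named are the 6 strongest, the 6 largest falls past the threshold without overlap, the 3 highest changes, up to 5 members per gene list whose nearest coding start is within 100 kb, and 3 peaks on each side of the 50 kb limit. The sequences with 1 mismatch, the recurrent octamer sequences and the members changed after centring were chosen later. Sequence was read with pysam from GRCm38.p6. Of the members and peaks chosen by this rule, 2 are not reported here.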

Additional observations from a re-analysis of the deposited data

How the results depend on the processing

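With low peaks left out (RPKM at least 0.5 in either condition, then in the mean of 6 libraries) the members' change against far peaks was -0.174 and -0.174. In 10 level classes it was -0.180 and against nearest unmarked peaks -0.0675, both chosen after the data were seen. The median change was -0.53 with a pseudocount of 0.5 and -0.12 after centring. Against clustered peaks the change was 0.12 with a pseudocount of 0.5 and 0.0715 with solitude at 100 kb. The percent of tested members called lower was 2.52 after centring, 2.07 after quantile normalization (23 members, with 2 higher), and 49.8 to 76.6 on leaving out 1 library. It was 59.4 to 80.5 under the other alternatives. Shares of all peaks are given only for the main fit, centring and the replicate block. The other percentages thus have no background beside them.

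Under the same 2 filters on low peaks, the splits of members changed by -0.0292 and -0.0359 (gene body), 0.0584 and 0.0519 (level), -0.0126 and -0.0143 (length), -0.0158 and -0.0295 (soft-masked), 0.0104 and 0.0136 (coding start), and -0.0103 and -0.00136 (next marked peak). Neighbours changed by -0.0586 and -0.0602 at 5 to 20 kb and by -0.00308 and -0.00601 at 20 to 50 kb. The splits by length and soft-masked share and the neighbours at 20 to 50 kb thus turned in sign. With a pseudocount of 0.5, level changed by 0.0144, coding start by 0.0176, next marked peak by -0.0138, and neighbours by -0.0226 at 5 to 20 kb and 0.0117 at 20 to 50 kb. With a pseudocount of 0.01, level changed by 0.14 and neighbours at 20 to 50 kb by 0.0519. With solitude at 100 kb, level changed by 0.15 and neighbours by -0.0344 and 0.0479, and the split by the next marked peak had no value. With solitude at 25 kb, next marked peak changed by -0.00553 and neighbours by -0.0152 and 0.0158. After centring, the members near Spred2 (0.0486) and Tfap2a (0.0442) turned in sign. The causes were not tested.

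The deviations of same-numbered libraries had correlations of -0.01, -0.09 and -0.06, and those of differently numbered libraries lay between -0.07 and 0.14. With 3 libraries per condition, these values cannot tell whether same-numbered libraries shared a culture or a batch. In the labels they share only a number. With replicate number as a replicate block, 871 of 1110 members (78.5%) were lower, where 71.4% of all tested peaks were. Without the block 859 members were lower, where 68.2% of all tested peaks were.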
